A study of Mus musculus with 14 samples.

Results

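Forkhead (FOX) and SOX genes, 2 families of transcription factors, were examined for binding of PRDM16 in the ventricles of the mouse embryo. The members were the 63 protein-coding genes of the RefSeq table for GRCm38 (21887 genes in all) whose symbol starts with Fox, a letter from a to s and a digit, or with Sox and a digit. They comprised 44 FOX and 19 SOX genes. A peak of chromatin immunoprecipitation followed by sequencing (ChIP-seq) was assigned to the protein-coding gene whose body lay nearest to its summit, which gave 112 of the 17587 wild-type (WT) peaks to these genes, 62 to FOX and 50 to SOX.

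All 14 samples came from C57BL/6 mouse embryos at E13.5 and comprised 7 PRDM16 ChIP libraries and 7 inputs. Whole ventricles, with the atria removed, gave 2 WT libraries and 1 library of Prdm16 conditional knockout hearts (Prdm16cKO), each pooled from 3 hearts of a genotype. The left ventricle (LV) and right ventricle (RV) of WT embryos gave 2 libraries each, pooled from 10 to 12 ventricles. The knockout served to judge the specificity of the antibody. No values of the input libraries were used directly here. WT samples are labelled Mock for genetic manipulation. No source used here names the Cre line, or the cells that lost Prdm16. The files hold no expression values, so the tissue was checked by peaks alone: all 12 genes listed as ventricular cardiomyocyte markers had a WT peak, against 0 of 4 erythroid and 0 of 4 hepatocyte markers, 7 of 8 for endothelium and endocardium and 3 of 5 for epicardium. Of all protein-coding genes 32.9% had one, so lists of 4 genes say little. The LV libraries held 330443 (A) and 184244 (B) reads within WT peaks, and the RV libraries 281797 (A) and 267808 (B). The letters are names only, with no link to the replicate numbers of the labels. Pairs of LV or RV values below are in the order A, B.

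PRDM16 is a zinc-finger factor that recruits chromatin regulators to DNA. FOX factors bind DNA through a winged-helix domain. FOXO members such as FOXO1 and FOXO3 are held in the cytoplasm when insulin and growth factor signalling through AKT is active. FOXP members repress transcription as dimers. SOX factors bind and bend DNA through an HMG box and are grouped by its sequence: group B acts in stem and neural progenitor cells, group C in progenitors of many tissues, group D in cartilage, muscle and nerve, group E in neural crest and cartilage, and group F in endothelium. In the heart, Foxp1 restrains proliferation of cardiomyocytes, Sox4 and Sox11 are needed for the outflow tract, and Sox9 acts in the valves.

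A PRDM16 peak stood at the promoter of 6 members, and the sequences there are shown because binding and gene start meet in them. RefSeq promoter windows for GRCm38 (250 bases before to 50 after a start) were at hand for 41 of the 63 genes, 28 FOX and 13 SOX, in 51 windows. A WT peak overlapped a window of 6 genes: Sox4, Sox11 and Sox6 among the SOX genes (23.1% of 13), and Foxp1, at 2 of its starts, Foxj2 and Foxj3 among the FOX genes (10.7% of 28). Among all 17492 protein-coding genes with a window, 1617 (9.24%) had such a peak. The 250 bases before the start, from RefSeq (GRCm38.p6) and written 5′ to 3′ along the gene, are given for 6 of these 7 windows. The other window of Foxp1 met its peak only after the start. Peaks at the printed windows of Foxj3, Foxj2, Foxp1 and Sox6 were among the weaker WT peaks. In fold enrichment over background they had ranks of 17005, 16353, 16028 and 15599 among 17587. Their -log10 q values from the peak caller were 2.91, 2.91, 3.46 and 4.73, all below the limit of 5 used as an alternative below. Above it were Sox4 (11.5), Sox11 (35.6) and the other window of Foxp1 (12.3). Capitals mark any of 5 motifs searched on both strands.
Sox4, chr13:28953700-28953949, minus strand: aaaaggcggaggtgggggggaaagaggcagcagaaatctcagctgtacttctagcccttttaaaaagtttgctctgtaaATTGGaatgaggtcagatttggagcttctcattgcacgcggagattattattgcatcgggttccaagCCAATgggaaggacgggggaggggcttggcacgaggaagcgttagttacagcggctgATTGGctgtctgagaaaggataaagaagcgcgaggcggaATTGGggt
Sox11, chr12:27342719-27342968, minus strand: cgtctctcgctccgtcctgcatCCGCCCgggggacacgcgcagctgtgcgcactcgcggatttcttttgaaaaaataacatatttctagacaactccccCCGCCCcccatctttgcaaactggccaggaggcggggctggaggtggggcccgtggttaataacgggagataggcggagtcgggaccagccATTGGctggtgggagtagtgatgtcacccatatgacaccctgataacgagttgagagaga
Sox6, chr7:116031048-116031297, minus strand: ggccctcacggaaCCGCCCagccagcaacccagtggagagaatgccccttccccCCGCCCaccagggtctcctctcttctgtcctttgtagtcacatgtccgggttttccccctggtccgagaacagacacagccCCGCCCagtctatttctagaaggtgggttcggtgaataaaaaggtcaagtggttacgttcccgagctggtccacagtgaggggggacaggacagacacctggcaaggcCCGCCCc
Foxp1, chr6:99028299-99028548, minus strand: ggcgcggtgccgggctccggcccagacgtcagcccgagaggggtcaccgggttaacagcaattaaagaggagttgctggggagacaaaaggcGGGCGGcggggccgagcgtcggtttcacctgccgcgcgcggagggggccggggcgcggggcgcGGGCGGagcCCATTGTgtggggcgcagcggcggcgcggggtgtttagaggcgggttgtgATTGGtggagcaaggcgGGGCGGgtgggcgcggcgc
Foxj2, chr6:122819934-122820183, plus strand: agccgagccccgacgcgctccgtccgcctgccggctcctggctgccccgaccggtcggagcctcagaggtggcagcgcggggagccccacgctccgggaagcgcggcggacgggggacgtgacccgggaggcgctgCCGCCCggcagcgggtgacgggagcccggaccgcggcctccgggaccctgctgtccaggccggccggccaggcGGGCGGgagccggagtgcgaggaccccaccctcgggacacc
Foxj3, chr4:119539411-119539660, plus strand: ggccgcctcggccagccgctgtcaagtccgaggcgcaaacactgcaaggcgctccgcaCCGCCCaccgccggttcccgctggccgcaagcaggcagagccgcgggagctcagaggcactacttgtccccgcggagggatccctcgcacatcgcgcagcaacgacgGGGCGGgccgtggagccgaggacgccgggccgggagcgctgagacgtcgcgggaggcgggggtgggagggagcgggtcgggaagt

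GC boxes, searched as GGGCGG, stood in 5 of the 7 member windows with a peak, against 63.8% of all 1767 windows with a peak and 42.6% of all 21263 windows. The other motif met more than once was the CCAAT box, searched by the letters of its name and chosen after the sequences were seen. It stood in 3 of the 7, against 35.4% of all windows, and the window of Sox4 held 4 of them and no GC box. The window of Sox11 held 1 CCAAT box and 2 GC boxes. A forkhead site, searched as GTAAACA, was in 0 of the 7, against 2.62% of all windows. A GATA site, searched as AGATAA, was in 0 as well, against 8.81%. A SOX site, searched as ACAATGG, was in 1, that of Foxp1, against 2.37%. Median GC content before the start was 60.8% in the 7 windows with a peak and 61.4% in the 44 member windows without, and CG dinucleotides numbered 17 and 15.5 at the median. A match of letters is a description of the sequence, not a bound site.

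Among FOX genes 17 of 44 (38.6%, 95% Wilson interval 25.7 to 53.4%) had at least 1 WT peak, and among SOX genes 8 of 19 (42.1%, 23.1 to 63.7%). Of all protein-coding genes 32.9% (7202 of 21887) did, which lies within both intervals. The intervals cover counting error alone. In whole tissue, binding in few cells and weak binding in many cannot be told apart. Counted in the same way, a peak was assigned to 8 of 13 T-box genes, 5 of 6 GATA genes, 5 of 6 Iroquois genes, 13 of 17 Kruppel-like genes and 9 of 15 POU genes, and to 2 of 39 Hox genes and 2 of 8 LIM homeobox genes. Median territory, the length of sequence nearer to a gene than to any other, differed between these sets, from 11 kb in Hox to 393 kb in Iroquois genes, and no test was made between families.

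SOX groups C and D held 42 of the 50 SOX peaks (84.0%) at 4 genes: Sox4 and Sox6 with 13 each, Sox11 with 11 and Sox5 with 5. Genes with at least 10 peaks were 3 of 19 in SOX and 1 of 44 in FOX (Foxp1 with 12), against 0.822% of all genes. Foxn3, a repressor of the cell cycle and of metabolic genes, followed with 9 peaks. FOXN, FOXO and FOXP genes together held 37 of 62 FOX peaks (59.7%). The remaining FOX genes with peaks had 1 to 5 each.

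**Figure D1:**
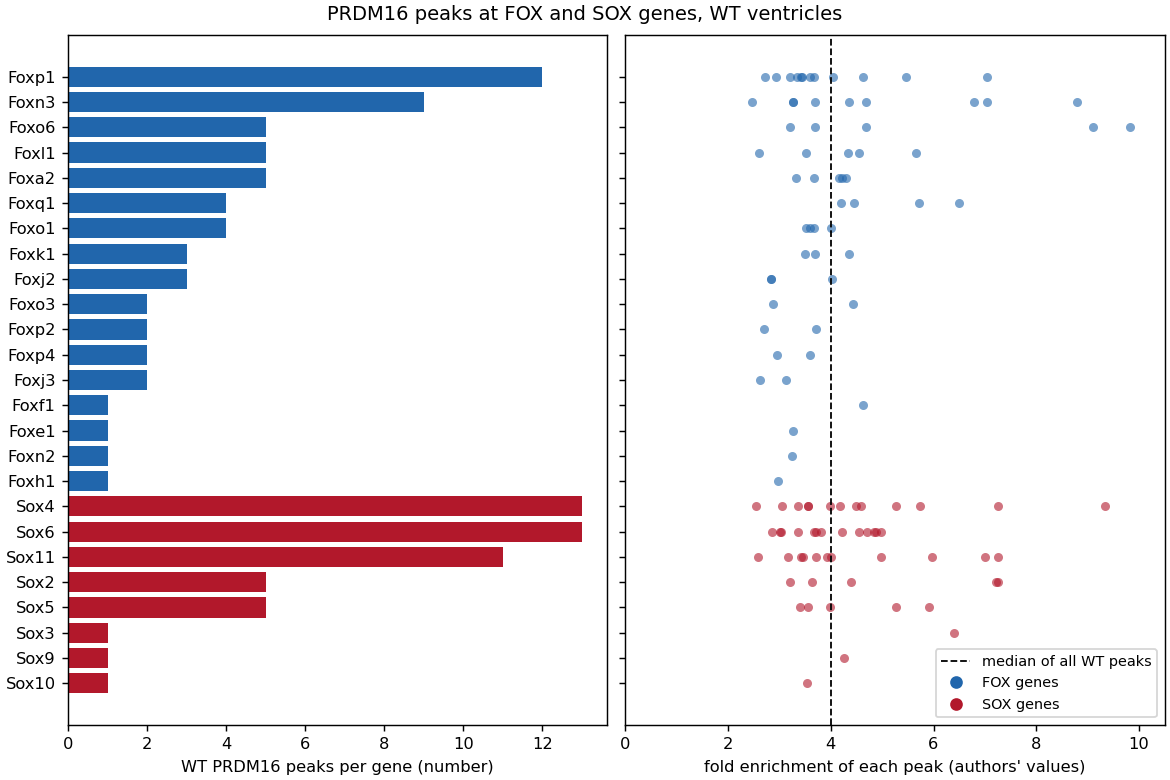
Number of WT PRDM16 peaks (left, bars) and fold enrichment of each peak (right, points; the authors' values) for the 17 FOX and 8 SOX genes with a peak. Sox4 and Sox6 had 13 peaks each and Foxp1 12, and the dashed line is the median of all WT peaks (4.0).

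Fold enrichment of ChIP over background, as the authors' peak caller gave it, had a median of 3.68 at FOX peaks (2.46 to 9.84) and 4.0 at SOX peaks (2.54 to 9.34), against 4.0 over all WT peaks, whose highest value was 32.9. At least 5-fold enrichment was reached by 10 of 62 FOX peaks (16.1%) and 12 of 50 SOX peaks (24.0%), against 26.1% of all WT peaks. None of the 112 peaks overlapped any of the 330 peaks of the Prdm16cKO library by 1 bp or more, where 1.12% of all WT peaks did, and no knockout peak had a member as its nearest gene. The knockout is a lone library and the peak lists give no value for each library, so this was not tested.

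Foxo6, a FOXO factor best known from brain and liver, had the strongest member peak. It lay at chr4:120248523-120249292, 18122 bp from the gene, with a fold of 9.84 that ranks 550th of 17587. A neighbour at chr4:120247391-120247922 had a fold of 9.11, and 2 weaker peaks stood at 14458 and 23927 bp, so that 4 of the 5 peaks formed a cluster on the same side of the gene. The next gene in line, Edn2, a vasoconstrictor peptide, was 81596 bp from the strongest summit. Its region held 38.7 and 52.7 normalized reads in LV against 40.7 and 27 in RV, and the ventricles overlapped there.

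Foxn3 had 8 of its 9 peaks inside the gene, whose body spans 373587 bp. The strongest, at chr12:99212835-99213156, had a fold of 8.79 (rank 815) and lay 237090 bp downstream of the start in the promoter table. Normalized reads were 13.4 and 10.3 in LV and 9.53 and 8.68 in RV, so that both LV libraries stood above both RV libraries by a small margin. Another peak of Foxn3, at chr12:99392974-99393157 (fold 2.46), lay inside the nested gene Gm51999 as well and was counted for both. It held 6.70 and 5.86 normalized reads in LV and 6.06 and 4.82 in RV.

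Foxp1 had 11 of 12 peaks inside its body of 597405 bp and the last 581 bp outside. Its strongest, at chr6:99200408-99201085, had a fold of 7.05 and 38.7 and 17.6 normalized reads in LV against 39.8 and 32.8 in RV. Peaks stood at 2 starts of the gene, with folds of 2.92 at chr6:99028470-99028885 and 5.46 at chr6:99266237-99266485. The second of these held few reads in LV and RV, 4.47 and 2.93 against 1.73 and 5.79. Foxp2, a factor of brain and lung development with a body of 540629 bp, had 2 peaks inside it, and Foxp4 had 2 outside, at 50081 and 54777 bp. The summit at 54777 bp was nearly as close to another gene, 1700122O11Rik, at 57336 bp. Foxp3, the factor of regulatory T cells, had none.

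The FOXO genes Foxo1 and Foxo3, effectors of insulin signalling, had weaker peaks than Foxo6. Foxo3 had 2 inside the gene, with folds of 4.44 and 2.88, the second 229 bp downstream of the start. Foxo1 had 4, all outside the gene at 10555 to 170213 bp, with folds of 3.52 to 4.01. Foxo4 had none. Of 17 genes that control FOXO factors, from the insulin receptor to AKT and the acetyltransferases, 16 had a peak (94.1%, against 32.9% of all genes). Pik3cb was the exception. Their strongest peak belonged to Irs1, an adaptor of the insulin receptor (8.12), followed by Irs2 (7.90) with 11 peaks. The list was chosen with earlier results of these data known. Over all genes the median territory was 98.5 kb with a peak and 33 kb without. Territories of the listed genes were not compared, and the share was not tested.

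In each of 2 loci where 3 forkhead genes lie in a row, all peaks assigned to these genes stood outside the row. Peaks nearest to another gene were not counted here and may lie within the rows. With any gene within 50000 bp counted, Foxf1, Foxl1, Foxc1 and Foxc2 each had a peak. On chromosome 8, Foxf1, Foxc2 and Foxl1 stand in a row with gaps of 28017 and 8790 bp. Foxf1, of lung and gut mesenchyme, had 1 peak (fold 4.63) 112011 bp away on the side that faces away from the others, with Mthfsd, the next gene, at 119253 bp. Its region, chr8:120972053-120972485, held 14.1 and 16.1 normalized reads in LV and 13.0 and 9.65 in RV. Foxl1, of gut mesenchyme, had 5, all beyond the other end at 22178 to 195299 bp, with the strongest at chr8:121241746-121242251 (5.66). On chromosome 13, Foxq1, Foxf2 and Foxc1 are separated by 64840 and 175240 bp. All 4 peaks assigned to these genes belonged to Foxq1, at 231425 to 286974 bp on the outer side, with folds of 4.20 to 6.49. The strongest, at chr13:31326589-31326884, lay 299071 bp from Foxf2, the next gene. No peak had a summit nearest to Foxc1, Foxc2 or Foxf2, of which Foxc1 and Foxc2 act in the outflow tract and arch arteries.

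Other FOX genes with peaks were Foxa2, a pioneer factor of endoderm, with 5 peaks 66444 to 331884 bp away (strongest 4.30), Foxk1, a factor of muscle progenitors, with 3 (4.35), Foxj2 with 3 (4.03) and Foxj3 with 2 (3.12). The strongest of Foxk1, at chr5:142369515-142369681 and 31870 bp from the gene, held 8.19 and 11.7 normalized reads in LV and 3.46 and 8.68 in RV. Foxe1, of the thyroid, Foxn2 and Foxh1, a partner of SMAD proteins in nodal signalling, had 1 peak each, with folds of 3.27, 3.25 and 2.97. The peak of Foxh1 lay inside the gene but only 156 bp from Ppp1r16a, and that at the start of Foxj3 was 715 bp from Frg2f1. The 27 FOX genes without a peak included Foxa1 and Foxa3, Foxb1 and Foxb2, Foxc1 and Foxc2, Foxd1, Foxd2, Foxd3 and Foxd4, Foxe3, Foxf2, Foxi1, Foxi2 and Foxi3, Foxj1, Foxk2, Foxl2, Foxm1, Foxn1 and Foxn4, Foxo4, Foxp3, Foxr1 and Foxr2, and Foxs1. Foxm1 drives mitosis in cardiomyocytes, and Foxj1 the formation of motile cilia.

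Sox4, of group C, had the strongest SOX peak and 13 peaks in a territory of 522 kb, or 24.9 per Mb against 6.54 over all genes. The strongest, at chr13:28957797-28958349, lay 4329 bp upstream of the start with a fold of 9.34 (rank 666). Normalized reads were 43.2 and 35.2 in LV and 45.0 and 37.6 in RV, and the ventricles overlapped. The peak at the promoter shown above, chr13:28953533-28953981, had a fold of 4.50, with 26 and 6 reads in LV and 15 and 14 in RV before normalization. Another, 6036 bp upstream, had 4.18. With 1 inside the gene, these made a group of 4 around the start. The others reached 319174 bp on the lower and 105149 bp on the higher side of the gene. The nearest other gene, Cdkal1, was 233718 bp from the strongest summit.

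Sox11, the group C partner of Sox4, had at its promoter, chr12:27342577-27343527, 70.0 and 45.4 normalized reads in LV and 77.9 and 61.7 in RV. These were the highest values of any member region except in LV library B, where the strongest peak of Foxo6 had 52.7. The fold of this peak, 6.99, was below those of the strongest peaks of Foxo6 and Sox4, and its width was 951 bases, against a median of 275 for member peaks. The other 10 peaks of Sox11 lay outside the gene, 5788 to 394279 bp away, and the strongest by fold, at chr12:27182954-27183658 and 150984 bp away, had 7.26. It held 21.6 and 17.6 normalized reads in LV and 21.7 and 10.6 in RV. Sox12, the remaining member of the group, had none.

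Sox6, a group D factor that sets fibre type in skeletal muscle, had 7 peaks inside its body of 569905 bp and 6 beyond the far end, up to 253726 bp away. Within the gene 4 peaks stood together, 1 at the promoter shown above and 3 upstream of that start, the strongest of them at chr7:116034225-116034770 (fold 4.98; 12.7 and 17.6 normalized reads in LV, 19.9 and 15.4 in RV). Sox5, its close relative, had 5 peaks, all inside its body of 953863 bp, with the strongest at chr6:144421890-144422165 (5.92; 5.21 and 5.86 in LV, 6.93 and 6.75 in RV). Sox13 of the same group had none.

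Sox2, the group B1 factor of stem cells, had 5 peaks and all were 183343 to 407714 bp from the gene. The strongest, at chr3:34958907-34959556, had a fold of 7.26, the same value as a peak of Sox4 and of Sox11, and 16.4 and 14.7 normalized reads in LV against 15.6 and 20.3 in RV. Sox3, on the X chromosome, had 1 peak at chrX:60773660-60774633, 117427 bp away, with a fold of 6.41 and 23.8 and 19.0 reads against 26.8 and 29.9. None of the 112 summits lay in a noncoding gene named after a member, such as Sox2ot.

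Sox9, a factor of valves and cartilage, had 1 peak, at chr11:112811673-112811857 (fold 4.26), in a territory of 762 kb, and Sox10, of neural crest, 1, at chr15:79195568-79195801 (3.54). Normalized reads at these were few, with 1.49 and 7.33 in LV and 1.73 and 1.93 in RV at Sox9, and 2.98 and 1.47 against 4.33 and 4.82 at Sox10. Sox7, Sox17 and Sox18, the group F factors of endothelium, had none, as did Sox1, Sox8, Sox12, Sox13, Sox14, Sox15, Sox21 and Sox30. Of all protein-coding genes 32.9% had a peak, and 3 lists of genes that work with these families are given beside that share. As with the FOXO list, these genes were chosen with earlier results known, and their territories were not compared. Genes that group F factors act on or with had a peak in 8 of 12 (66.7%), with Mef2c (7.66), Cdh5 (6.74) and Kdr (6.66) the strongest. Cldn5, Dll4, Notch1 and Tie1 had none. Among cartilage and valve genes of SOX9 7 of 10 (70.0%) had a peak, with Matn1 at 11.4, and Col9a1, Col11a2 and Comp had none. Forkhead corepressors and partners had a peak in 8 of 12 (66.7%), with Tle3, a Groucho corepressor, at 12.2. The 8 included the cardiac factors Nkx2-5 and Gata4, whereas Hdac1, Hdac2, Gatad2b and Sin3b had none.

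Summits were sorted by their distance from the gene. Of 50 SOX summits, 23 (46.0%, 95% Wilson interval 33.0 to 59.6%) were outside genes and over 50000 bp away, against 21 of 62 FOX summits (33.9%, 23.3 to 46.3%) and 15.6% of all WT summits. Within 1000 bp of a gene end were 2 SOX (4.0%) and 6 FOX summits (9.68%), against 16.4% of all. Deeper inside a gene were 13 SOX (26%) and 25 FOX summits (40.3%), against 48.5%, and outside within 50000 bp 12 (24.0%) and 10 (16.1%), against 19.5%. Peaks of 1 gene share a locus, and these shares were not tested. Of 34 FOX summits outside their gene, 19 had another protein-coding gene within 2 times the distance, as did 11 of 37 SOX summits. The assignment of such summits is uncertain, and the share over all WT summits was not worked out.

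**Figure D2:**
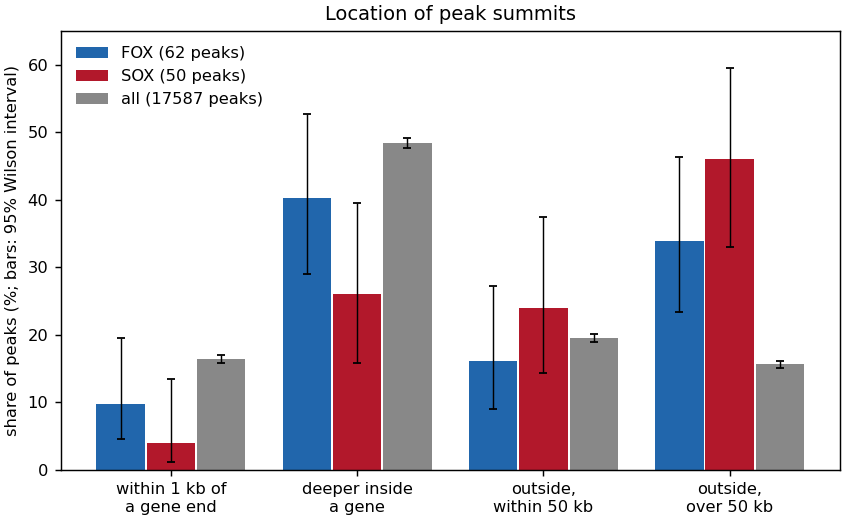
Share of peak summits in 4 location classes for FOX (62 peaks), SOX (50) and all WT peaks (17587), with 95% Wilson intervals. The class over 50 kb from any gene holds 46.0% of SOX and 33.9% of FOX summits against 15.6% of all.

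The median territory was 194 kb for FOX genes with a peak and 48.5 kb for those without, and 800 and 53 kb for SOX genes. For all genes the medians were 98.5 and 33 kb. Median gene length was 49830 bp for FOX genes with a peak and 3990 bp for those without, and 6999.5 and 4436 bp for SOX genes. Per Mb of territory, FOX genes had 7.30 peaks and SOX genes 7.35, against 6.54 for all genes. T-box (17.4), GATA (15.4), Iroquois (12.0) and Kruppel-like genes (11.6) had more per Mb, and LIM homeobox (4.80), Hox (3.55) and POU genes (2.49) fewer. Among the members with a peak 7 were below the value of all genes: Sox2 (5.97), Foxf1 (5.92), Foxn2 (4.46), Sox5 (3.65), Sox3 (3.14), Foxp2 (2.66) and Sox9 (1.31). Their territories ran from 169 kb at Foxf1 to 1370 kb at Sox5.

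**Figure D3:**
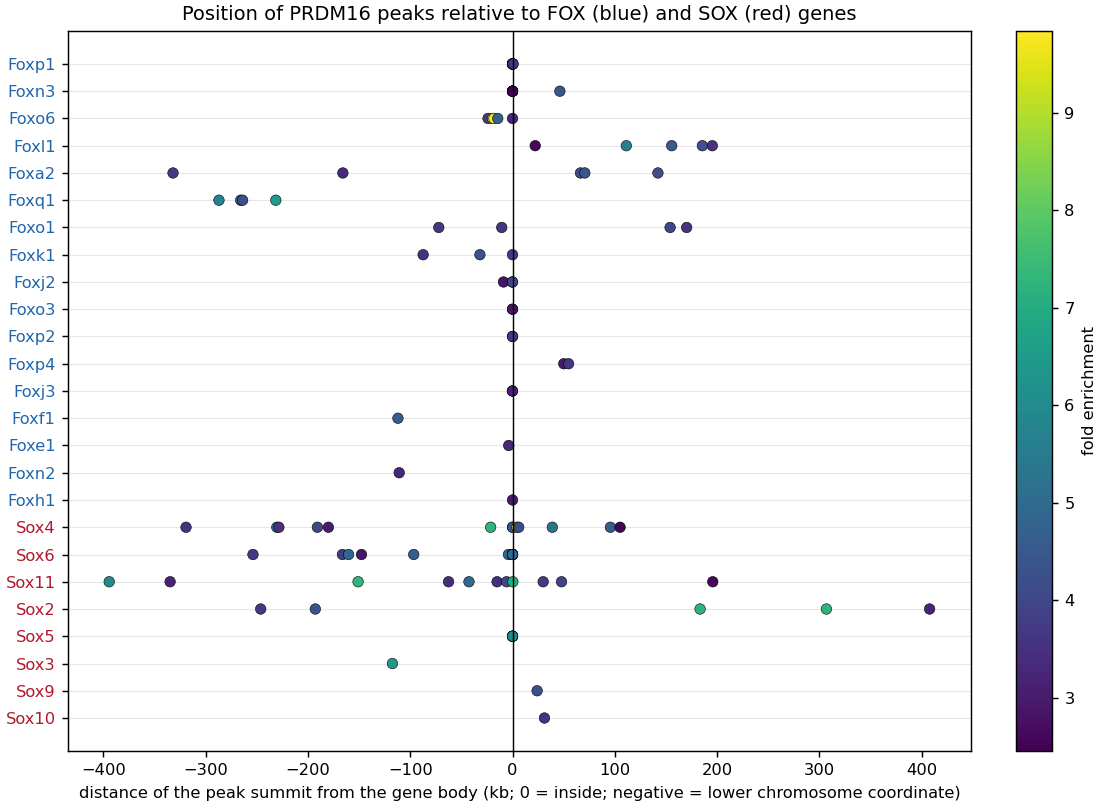
Distance in kb of each peak summit from the body of its gene, for FOX (blue names) and SOX genes (red names), with points coloured by fold enrichment; points at 0 are inside the gene and overlie each other. Peaks of Sox2 and Foxq1 all lie at least 183343 bp away, whereas those of Sox5, Foxo3 and Foxp2 are all inside the gene.

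LV against RV asked whether PRDM16 binding differed between the ventricles at the same peaks. Of the 112 member regions 0 had an adjusted p under 0.05 in the authors' deposited table, as did 0% of all regions, and 0 had an unadjusted p under 0.05 there (0.483% of all). The smallest member p in the authors' deposited table was 0.0834, at Foxp4. limma on log2 of normalized reads plus 1 (n = 2 pools per ventricle) called 0 member regions at an adjusted p under 0.05, against 0.0284% of all regions. At an unadjusted p under 0.05 limma had 9 of the 112, of which LV was the higher ventricle in 6 and RV in 3. The share over all regions was 6.32% (3.13% LV, 3.18% RV). An exact permutation test of 2 against 2 libraries cannot go below 0.333. The median member region held 10 and 5 reads in LV and 8 in each RV library.

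In the authors' deposited table the log2 of RV over LV had a median of -0.04 at FOX regions and 0.11 at SOX regions, against -0.0028 over all. By the authors' deposited table LV was higher at 33 of 62 FOX regions (53.2%) and 21 of 50 SOX regions (42.0%), against 50.2% of all. A log2 difference of at least 1 in the authors' deposited table stood at 12 FOX (19.4%) and 5 SOX regions (10.0%), against 10.6% of all. The LV and RV libraries did not overlap at 23 FOX regions, 12 higher in LV and 11 in RV (37.1% of 62), and at 17 SOX regions, 5 and 12 (34% of 50). Over all regions the share was 35.4% (17.9% and 17.6%). Both shares were near this background.

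**Figure D4:**
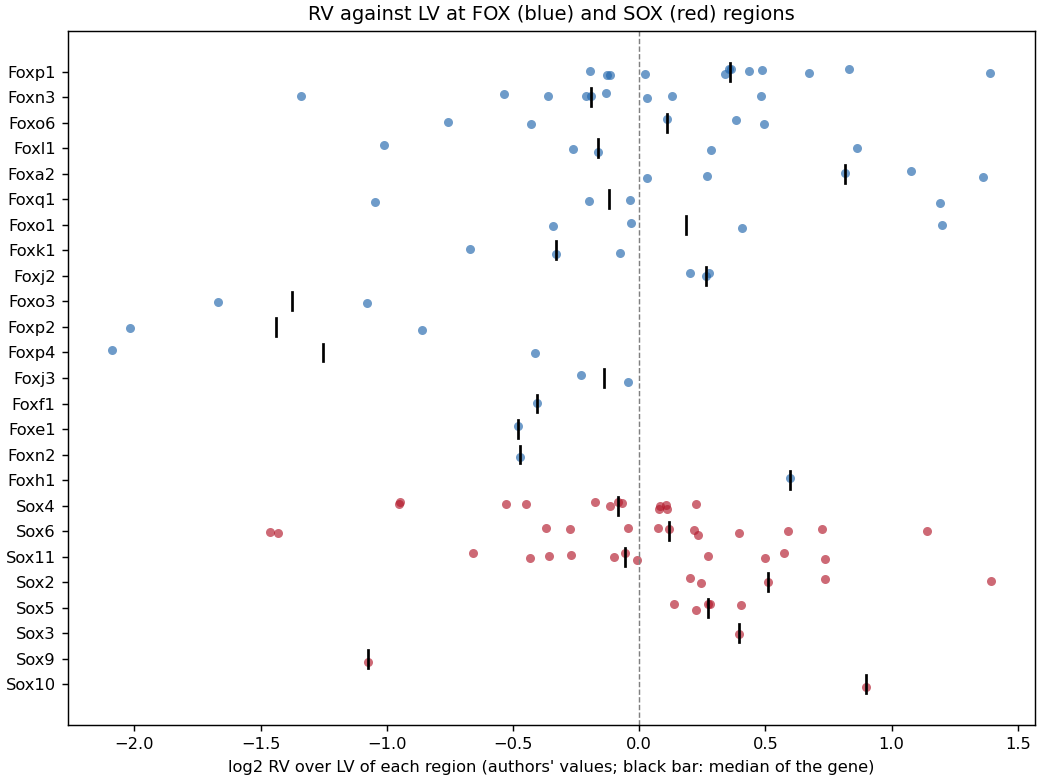
Log2 of RV over LV, from the authors' deposited table, at each FOX (blue) and SOX (red) region, by gene, with the gene's median as a black bar. Among genes with several regions, all those of Sox2, Sox5, Foxa2 and Foxj2 lie above 0 and those of Foxo3, Foxp2, Foxp4, Foxk1 and Foxj3 below. None of these regions had an adjusted p under 0.05 there. How many of all genes have every region on the same side was not worked out.

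The member region of smallest limma p was at Sox2, chr3:34835508-34835959, 183343 bp from the gene. It had 11.2 and 1.47 normalized reads in LV and 16.5 and 18.3 in RV. Both RV libraries were above both LV libraries, but LV library B, with 1 read, was far below LV library A, with 15. limma gave a log2 of 1.75 (SE 0.54) and an adjusted p of 0.568. Without LV library A, so that the lone read of LV library B stood for LV, the limma log2 was 2.90 and the adjusted p 0.00087. Without LV library B the log2 was 0.59 and the limma adjusted p 0.938. No other member region was called in any alternative, and over the alternatives the limma adjusted p of this one ran from 0.00087 to 0.992.

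At Sox4 the peak at chr13:28927340-28927758, 21388 bp from the gene, had 20.8 and 22.0 normalized reads in LV and 13.0 and 8.68 in RV. The ventricles did not overlap, and limma gave a log2 of -0.94 (SE 0.38, adjusted p = 0.694; 0.392 to 0.992 in the alternatives). Of the 13 regions of Sox4 8 were higher in LV and 5 in RV. At Sox6 2 regions went opposite ways, chr7:115310420-115310821 with 5.95 and 1.47 in LV and 6.93 and 10.6 in RV, and chr7:115831074-115831309 with 7.44 and 4.40 against 1.73 and 1.93. Their limma log2 values were 1.21 (SE 0.61) and -1.25 (SE 0.69), with adjusted p of 0.786 and 0.806. The first was 0.46 without LV library B and 1.96 without LV library A.

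In FOX genes the smallest limma p was at Foxp1, chr6:99058715-99059053, inside the gene, with 5.21 and 2.93 normalized reads in LV and 10.4 and 12.5 in RV (log2 1.33, SE 0.52, limma adjusted p = 0.682). RV was the higher ventricle at 9 of the 12 regions of Foxp1. At the other FOXP genes LV had the higher values. At Foxp4, chr17:47979343-47979522, normalized reads were 4.47 and 10.3 in LV and 1.73 and 0.965 in RV (log2 -1.76, SE 0.71, limma adjusted p = 0.694). At Foxp2, chr6:15242432-15242622, they were 3.72 and 10.3 against 1.73 and 0.965 (log2 -1.65, SE 0.72, limma adjusted p = 0.731), and the log2 was -1.03 without LV library B. The RV values in both regions stand for 2 reads and 1 read. Whether Foxp1 differs from Foxp2 and Foxp4 was not tested.

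Foxo3 had both regions higher in LV: chr10:42276390-42276572, near the start, with 10.4 and 5.86 normalized reads in LV and 3.46 and 0.965 in RV (log2 -1.58, SE 0.66, limma adjusted p = 0.706), and chr10:42190488-42190733 with 9.68 and 7.33 against 1.73 and 5.79. LV and RV libraries did not overlap in either. The log2 of the first was -0.99 without RV library B. At Foxn3, chr12:99386359-99386666 had 15.6 and 8.79 in LV and 5.20 and 3.86 in RV (log2 -1.22, SE 0.51, limma adjusted p = 0.706). The strongest peak of Foxl1 was higher in RV, with 19.1 and 15.4 against 11.2 and 7.33 (log2 0.85, SE 0.41, limma adjusted p = 0.772). That of Foxq1 had 6.70 and 16.1 in LV against 0.866 and 9.65 in RV (log2 -1.36, SE 0.64, limma adjusted p = 0.761), and the libraries overlapped. Its limma log2 was -0.11 without RV library A, -2.62 without RV library B and -0.79 without LV library B. None of these values passed the threshold, and the regions differed in direction within both families.

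**Figure D5:**
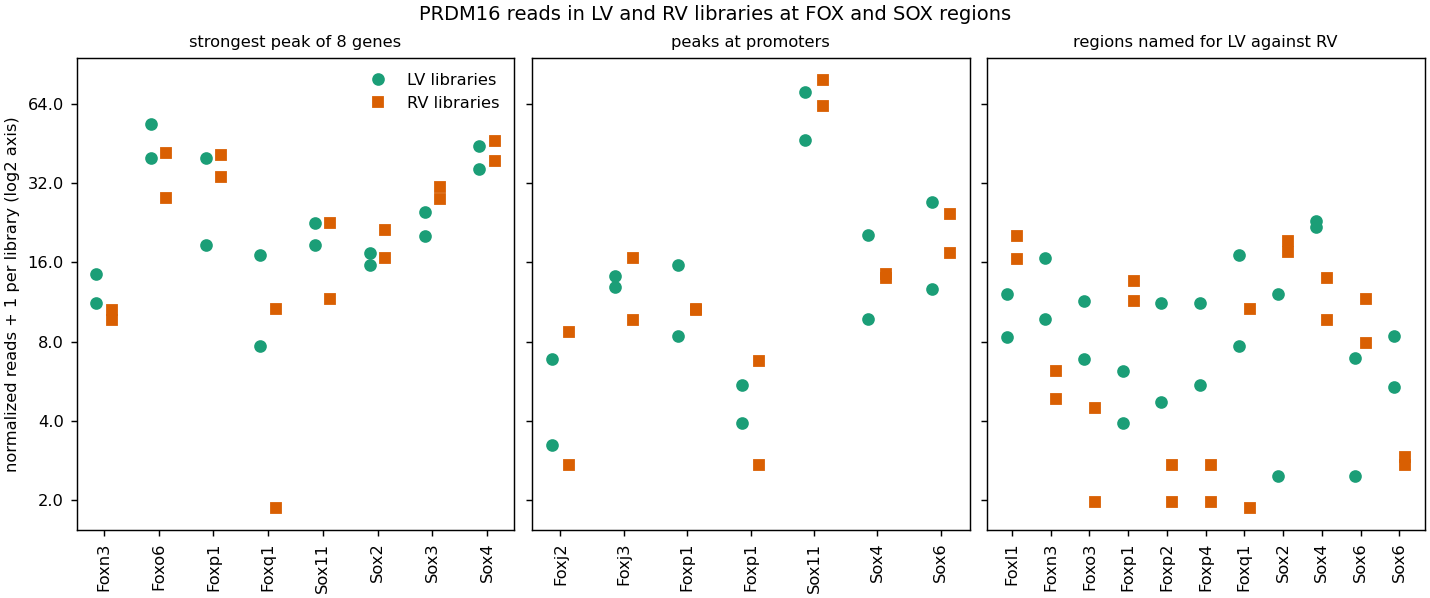
Normalized reads plus 1 per library (log2 axis) in 2 LV (circles) and 2 RV libraries (squares) at the strongest peaks of 8 genes, at 7 peaks that meet a promoter window and at the 11 regions named for LV against RV. The Sox11 promoter is highest in LV library A and both RV libraries, and Foxo6 in LV library B (52.7 before the 1 is added).

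Summed over all regions of a gene, normalized reads at Sox4 were 162 and 157 in LV and 146 and 136 in RV, and at Sox11 132 and 101 against 139 and 115. At Sox6 they were 122 and 113 against 120 and 137, at Foxn3 106 and 108 against 98.7 and 83.0, and at Foxo6 103 and 99.6 against 88.3 and 89.7. Foxp1 had 126 and 89.4 in LV and 136 and 143 in RV. LV was above RV in all libraries at Sox4, Foxn3 and Foxo6, below it at Foxp1, and overlapped it at Sox11 and Sox6. Of all single regions, 35.4% had LV and RV libraries that did not overlap. The share for sums over all genes was not worked out, so no ventricle difference is read from these sums. The smaller sums of Foxo3 were 20.1 and 13.2 in LV against 5.20 and 6.75 in RV, and those of Foxa2 15.6 and 20.5 against 23.4 and 38.6.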

How the data were processed

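PRDM16 ChIP-seq peak lists (WT, Prdm16cKO) and an LV-RV table were used. The submitters' processing notes name the builds mm10 and GRCm38 and, without their roles, the tools DESeq2, HOMER, MACS2 2.1.1.20160309 and BWA 0.7.12-r1039. Whether replicates were pooled for the lists is not stated. The deposited peak lists hold a score (10 times the -log10 q, rounded down), a fold enrichment (ratio of ChIP to background), the -log10 p and q, and the summit. Per the file headers, the deposited table holds the LV and RV signal, log2 values and p-values, raw and adjusted, of a test that is not stated.

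The deposited signal of a ventricle, less 0.5, was at 100% of regions the average of 2 libraries' whole reads, each multiplied by its own factor (LV 0.744 and 1.47; RV 0.866 and 0.965; tolerance 1e-07, 1 solution). Reads multiplied by these factors are the normalized reads. limma 3.58.1 (R 4.3.3; trend, Benjamini-Hochberg over all 17587 regions, pseudocount 1) was run on them and tested on simulated data. Summits were assigned by Python 3.11.15 to the nearest gene body (RefSeq table, GRCm38; 178 summits tied between genes counted for each; mitochondrial genes left out). Territories were read on a 1000 bp grid. Replicates were separate pools per the labels. Members are named, except for an item that is not reported here. Positions and reads are given for the strongest peaks of 8 genes per family, genes with at least 10 peaks, peaks within 1000 bp of an end of a gene with a fold of at least 8, and the 3 regions per family of smallest p by limma or the deposited table. Promoter peaks and regions with a limma p under 0.05 were added with the values known. Members, lists and tests were chosen with earlier results of these data known. Motifs in peaks were not analysed here, since no genome was used.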

Additional observations from a re-analysis of the deposited data

How the results depend on the processing

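Counts depended on the distance allowed between peak and gene. With the nearest gene within 10000 bp, 10 of 44 FOX and 4 of 19 SOX genes had a peak, with 33 and 19 peaks. Both shares were below that of all genes (27.9%), whereas in the main count both were above it. At a -log10 q of at least 5 there were 36 FOX and 33 SOX peaks, at 13 of 44 and 7 of 19 genes, where 26.1% of all genes had one. With any gene within 50000 bp, 22 of 44 FOX and 11 of 19 SOX genes had a peak, where 56% of all genes did. Leaving out peaks that overlap a knockout peak changed none of the 4 counts. Of the 112 member regions, 49 had a mean of at least 8 normalized reads, and the limma run with that limit tested only these. The limma count of member regions was 0 under both other pseudocounts, a mean of at least 8 reads and scaling to total reads in peaks, and ranged from 0 to 1 with a library left out. The 1 call, at Sox2, came without LV library A, where 90 of all regions were called. The SOX median log2 of RV over LV was 0.22 within 10000 bp, 0.15 with a pseudocount of 1 and 0.14 with scaling to total reads, and 0.077 to 0.24 with a library left out. Over all regions the median moved as well, from -0.0028 to 0.033 with scaling to total reads. With a library left out the median over all regions lay between -0.018 and 0.026. A lone library was then assumed to vary like those of the other ventricle. The FOX median lay between -0.11 and 0.03 in all alternatives, on either side of 0. The direction of the 11 regions named for LV against RV held in every alternative that tested them. These regions were chosen by small p from the same reads. At all of them but that of Foxq1 the LV and RV libraries did not overlap, so leaving out a library could not reverse the direction. No paired analysis was possible because the LV and RV columns carry no replicate numbers. Reads per region limit what can be seen: the median member region held 5 to 10 reads per library.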
